A study of Mus musculus with 12 samples.

Results

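On day 0, 6835 CpG cytosines of the mouse autosomes were methylated at 80% or more in the experimental line and at 20% or less in the control line. They were selected on the day 0 values themselves, from the 606488 autosomal cytosines listed in all 12 RRBS libraries, and made up 1.13% of these. The question followed here is which of these cytosines kept the difference on days 5, 9, 12, 16 and 20. Both lines are immortalized mouse embryonic fibroblasts (iMEFs) that carry R26M2rtTA/+ and TetOcre, so that doxycycline at 1 µg/mL switches on the Cre recombinase. The experimental line is Sdhcfl/fl and can lose both copies of Sdhc, a membrane subunit of succinate dehydrogenase, whereas the control line is Sdhcfl/wt and keeps 1 copy. The day 0 libraries were made before doxycycline, so the selection compares the lines before Cre was induced. Each genotype is 1 line immortalized with SV40 virus from its own embryo, with 1 library for each day. An effect of the genotype therefore cannot be told apart from other differences between the 2 lines.

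In mammals, 5-methylcytosine sits mainly in CpG dinucleotides, where the cytosines of both strands normally carry the same mark because Dnmt1 copies it to the new strand after replication. Tet dioxygenases start its removal and are inhibited by succinate, the substrate that accumulates when succinate dehydrogenase is lost. CpG-rich promoters are usually unmethylated, while the bodies of genes and the DNA between them are usually methylated. RRBS enriches for CpG-rich fragments, and bisulfite treatment turns unmethylated cytosines into bases read as T. A cytosine that a line carries as T in its genome is therefore also read as unmethylated; the genome sequences of the lines were not analysed here.

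The sequence context of selected cytosines is shown for 4 promoters, 3 of which hold a cytosine that still differed after day 0, beside 1 that held the most selected cytosines of the windows searched and in which none did. Promoter windows of RefSeq (GRCm38.p6, of which mm10 is the browser name) were searched on autosomes, but not on every autosome. Of the 31396 windows there, 65 held a selected cytosine in the 250 bases before the start. These counts of windows are not read as a share. All 82 selected cytosines in the 65 windows lay in a CG of the sequence. The median number of CG dinucleotides was 13 in the 65 windows and 6 in all 31396, with or without a listed cytosine. Only a window with listed cytosines could hold a selected one, so these medians do not describe the selection. The 250 bases upstream of each start are printed 5′ to 3′ on the strand of the gene, with the CG of each selected cytosine in capitals.
Sox6, chr7:116031048-116031297, minus strand: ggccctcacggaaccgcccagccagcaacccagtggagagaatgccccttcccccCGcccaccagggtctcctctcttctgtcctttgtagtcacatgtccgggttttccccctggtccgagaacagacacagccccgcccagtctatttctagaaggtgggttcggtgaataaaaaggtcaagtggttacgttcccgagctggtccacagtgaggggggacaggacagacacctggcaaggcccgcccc
E030011O05Rik, chr9:96752832-96753081, minus strand: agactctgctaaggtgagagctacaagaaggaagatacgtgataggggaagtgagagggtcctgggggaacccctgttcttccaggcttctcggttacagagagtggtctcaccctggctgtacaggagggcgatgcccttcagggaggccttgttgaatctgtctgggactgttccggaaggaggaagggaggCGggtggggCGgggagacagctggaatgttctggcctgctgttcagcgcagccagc
Gm31036, chr8:95137867-95138116, plus strand: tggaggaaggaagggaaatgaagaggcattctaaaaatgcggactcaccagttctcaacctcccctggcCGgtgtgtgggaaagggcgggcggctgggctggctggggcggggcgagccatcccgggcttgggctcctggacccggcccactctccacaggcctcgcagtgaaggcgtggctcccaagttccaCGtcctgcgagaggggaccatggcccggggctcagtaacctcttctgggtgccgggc
Terb1, chr8:104509888-104510137, minus strand: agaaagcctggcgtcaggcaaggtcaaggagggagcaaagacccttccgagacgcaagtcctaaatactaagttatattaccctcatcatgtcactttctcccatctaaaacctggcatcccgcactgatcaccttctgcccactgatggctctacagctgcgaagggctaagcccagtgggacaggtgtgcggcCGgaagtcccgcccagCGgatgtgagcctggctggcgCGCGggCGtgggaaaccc

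After day 0, most of the selected cytosines were not methylated in the experimental line alone. Their mean beta value, the methylated share on a scale from 0 to 1, was 0.927 in the experimental and 0.0419 in the control line at day 0, as the selection required. On days 5 to 20 it was 0.757 ± 0.0125 (SD over 5 libraries of 1 line) in the experimental line, with values of 0.756, 0.771, 0.764, 0.738 and 0.754 in day order. The control line stood at 0.613 ± 0.00801, with values of 0.611, 0.616, 0.625, 0.607 and 0.605. The lines did not overlap, and the difference between them was 0.144 ± 0.00931 on the same days, compared with 0.0111 ± 0.00415 over all 606488 cytosines. The label of the set, methylation in the experimental line only, was thus not borne out after day 0, and the cytosines are called selected cytosines below.

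**Figure D1:**
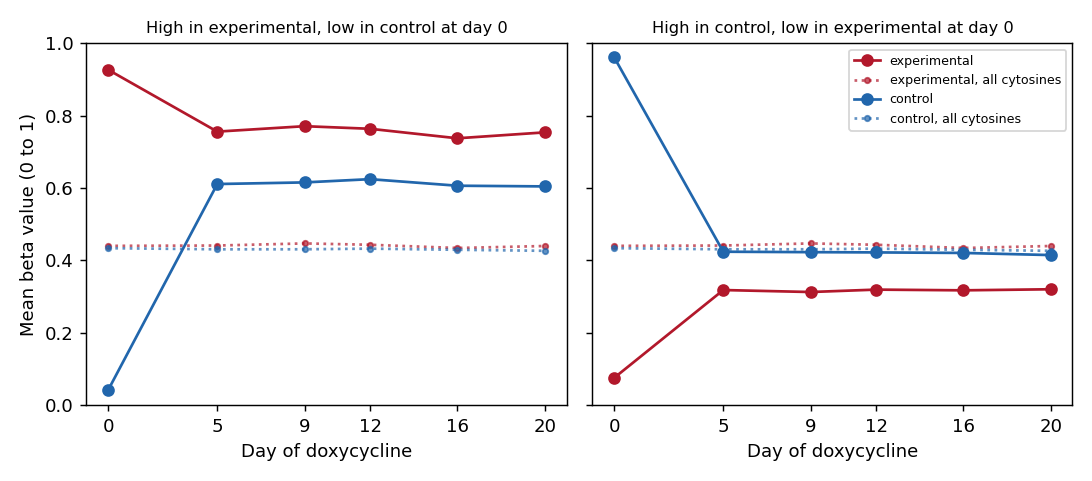
Mean beta value by day of doxycycline for cytosines high in the experimental and low in the control line at day 0 (left, 6835 cytosines) and for the reverse selection (right, 4558 cytosines), 1 library per point, with the means of all 606488 cytosines dotted. After day 0 the control line lies between 0.605 and 0.625 on the left, and the experimental line between 0.738 and 0.771.

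The shares of single cytosines gave the same picture of the later days. In the control libraries of days 5 to 20, between 34.7% (day 20) and 55.8% (day 12) of the selected cytosines were at 80% or more, and between 13.1% (day 5) and 30.7% (day 12) were still at 20% or less. In the experimental libraries, between 50.6% (day 16) and 62.9% (day 9) remained at 80% or more. The control day 12 library stood apart within its line: it listed the fewest cytosines of all 12 libraries, 932307 against 1394408 to 1716381 in the other control libraries, and 77.4% of the selected cytosines had a value of exactly 0 or 100% there. The part of this library in the shares was not tested.

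**Figure D2:**
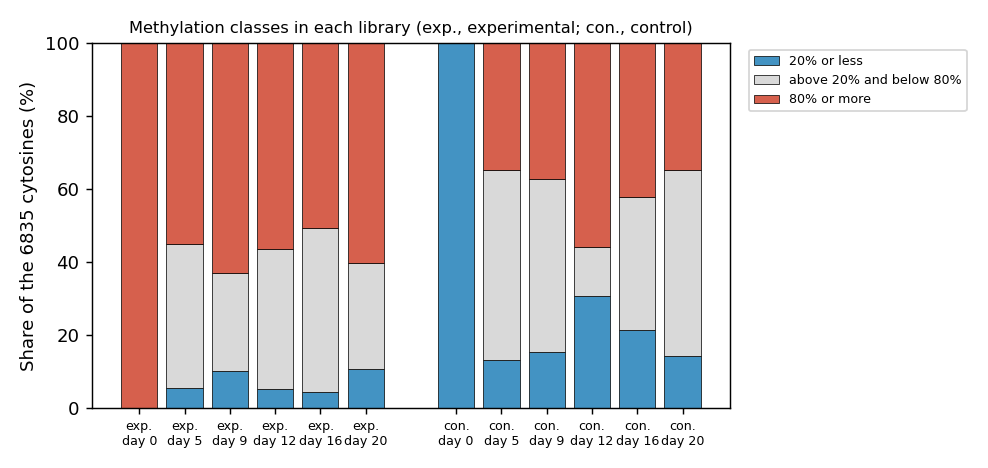
Share of the 6835 selected cytosines at 20% or less, between 20% and 80%, and at 80% or more in each library (exp., experimental; con., control; 1 library per bar). Day 0 is fixed by the selection; in the control libraries of days 5 to 20 the class at 20% or less holds between 13.1% and 30.7%.

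The rule itself was met again by 252 of the 6835 cytosines (3.69%) on day 5, 468 (6.85%) on day 9, 914 (13.4%) on day 12, 452 (6.61%) on day 16 and 403 (5.90%) on day 20. Day 12 had the highest and day 5 the lowest share, and among all cytosines the rule was met by 0.453% on day 5 and 2.90% on day 12. On none of the 5 later days was it met by 4927 cytosines (72.1%), on exactly 1 day by 1465, on 2 by 338, on 3 by 76, on 4 by 25 and on all 5 by 4. In the control line, 5200 cytosines (76.1%) reached 80% or more in at least 1 later library and 805 (11.8%) in each of them, whereas 145 (2.12%) were at 20% or less in each. In the experimental line, 1328 cytosines (19.4%) were at 80% or more in each later library. At 352 cytosines (5.15%) all 10 later libraries of both lines were at 80% or more, so that the day 0 control library alone was low.

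Cytosines chosen the other way round, at 80% or more in the control and 20% or less in the experimental line at day 0, numbered 4558 (0.752%). For these cytosines, too, the lines lay closer together on the later days. Their mean beta value on days 5 to 20 was 0.421 ± 0.00363 in the control and 0.318 ± 0.00295 in the experimental line (SD over 5 libraries each), and 4 of them met their own rule on all 5 later days, the same number as in the selected set. The same thresholds were also applied between days of 1 line. With control day 0 as the low library, the later control libraries gave 15776 cytosines for day 12 and between 4558 and 8219 for the other 4 days (median over the 5 days, 5592), and the 5 later experimental libraries gave between 5863 and 12107 with a median of 7442. With experimental day 0 as the high library, the 5 later experimental libraries gave between 926 and 4985 with a median of 1450, each below the 6835 obtained between the lines at day 0, and the 5 later control libraries between 2451 and 16298 with a median of 3522.

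The other strand of the same CpG gave a readout at day 0 that the selection did not use. It was listed for 616 selected cytosines (9.01%). At these CpGs the selected cytosine had a mean beta value of 0.923 in the experimental and 0.038 in the control line at day 0, and the cytosine opposite had 0.755 and 0.622. The opposite cytosine was at 80% or more in the control day 0 library for 254 of the 616 selected cytosines (41.2%) and at 20% or less for 105 (17.0%). For 36 (5.84%) the opposite cytosine met the rule as well, so that these are the strands of shared CpGs. From day 5 on, both strands stood at similar levels: the selected cytosine averaged between 0.597 and 0.624 in the later control libraries, and the opposite one between 0.591 and 0.614.

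**Figure D3:**
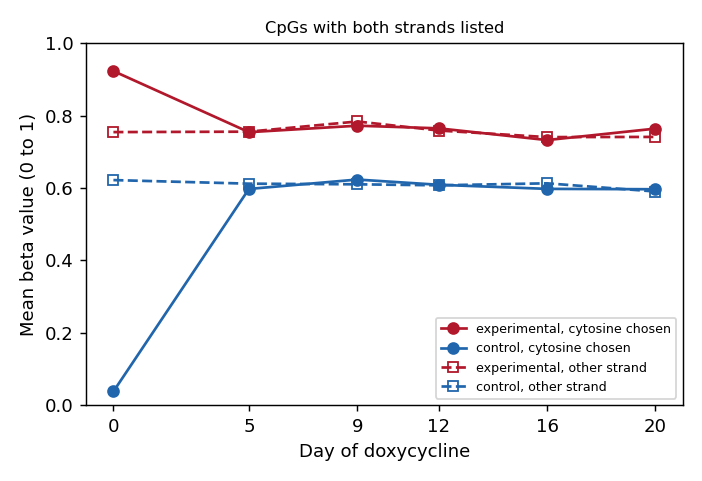
Mean beta value by day for the 616 selected cytosines whose opposite strand was listed (filled circles) and for the opposite strand (open squares), 1 library per point. The strands differ at day 0, by selection, and the opposite strand of the control line is at 0.622 there; from day 5 on the strands of a line lie close together.

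Exact values of 0 and 100% were frequent among the values that chose the set. In the control day 0 library 69.6% of the selected cytosines were at exactly 0, and in the experimental day 0 library 41.8% were at exactly 100%. Over all cytosines these shares were 41.6% and 14.4%, but a set limited to the ends of the scale must hold more exact ends. Of all cytosines at 20% or less in control day 0, 88.7% were at exactly 0 there. Of all at 80% or more in experimental day 0, 45.4% were at exactly 100%. Against these, the selected cytosines were not richer in exact ends. The 2188 cytosines at 100% and 0 had a mean difference of 0.117 between the lines on days 5 to 20, and the 1408 with neither value at the end of its scale had 0.188. Read counts do not stand beside the deposited percentages, so depth is unknown and no interval was computed for single cytosines. Just inside the upper threshold, the 1466 cytosines from 80% to under 85% in experimental day 0 had means of 0.680 and 0.526 in the experimental and control lines later, and the 1539 from 75% to under 80%, just outside, had 0.647 and 0.502. At the lower threshold, the 926 cytosines above 15% and up to 20% in control day 0 had 0.783 and 0.623, and the 1037 above 20% and up to 25% had 0.782 and 0.627.

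The selected cytosines lay away from promoters more often than the cytosines they were drawn from. Promoters, here 1500 bp upstream to 500 bp downstream of a gene's start, held 604 of them (8.84%), gene bodies 4076 (59.6%) and the DNA between genes 2155 (31.5%); of all cytosines, 30.3%, 49.7% and 19.9% lay in these places, and of the reverse selection 23.4%, 53.2% and 23.4%. This distribution comes from the selecting values and was not tested. A selected cytosine had a median of 2 other listed cytosines within 100 bp, compared with 4 for all. Between 0.920% (chromosome 19) and 1.53% (chromosome 7) of the listed cytosines of a chromosome were selected.

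Clusters were few. No other selected cytosine lay within 200 bp of 5292 (77.4%), 1 lay there for 1126, 2 or 3 for 330 and 4 or more for 87. The median difference between the lines on days 5 to 20 was 0.117 for the isolated cytosines and 0.205 for those with 4 or more others nearby. A difference of 0.6 or more was seen at 3.12% of the isolated cytosines, at 18.4% of those with 4 or more others, and at 0.223% of all cytosines. In runs of listed cytosines with gaps of at most 200 bp and at least 3 cytosines, called regions below, 4932 selected cytosines (72.2%) were found, and 442 (6.47%) lay in regions that held 3 or more; the most in 1 region was 9.

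Whether the lines differed after day 0 was tested with limma across all cytosines, on the 5 experimental and 5 control libraries of days 5 to 20, which the selection did not use. Beta values were turned into M-values, log2((beta + 0.01)/(1 − beta + 0.01)), and an adjusted p (Benjamini-Hochberg, over the 497697 cytosines whose 10 values were not all equal) below 0.05 was taken as a call. Of 6763 selected cytosines tested, 118 (1.74%) were higher in the experimental line, where 0.246% of all cytosines were called in this direction. None was lower, where 0.193% of all were called. The unadjusted limma p was below 0.05 for 1491 higher (22.0%) and 176 lower (2.60%) selected cytosines, against 6.71% and 5.26% of all cytosines tested. With libraries of the same line taken as if they were replicates, the spread measured here is that between days. Of the reverse selection, 60 of 4436 tested cytosines were lower in the experimental line and 8 were higher. In 553 selected cytosines (8.09%) the lowest experimental value lay above the highest control value. This was so for 1.48% of all 606488 cytosines (1.8% of those tested). The order was reversed in 20 selected cytosines (0.293%) and in 6253 of all 606488.

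The 118 called cytosines had a mean beta value of 0.889 in the experimental and 0.191 in the control line on days 5 to 20, with no overlap between the libraries of the lines at any of them. Of these, 69 (58.5%) lay in gene bodies, 32 (27.1%) between genes and 17 (14.4%) in promoters, and 103 genes hosted them or were nearest. Thbd held 6 of them, Sim2 4, Gdf6 and Hoxa6 3 each, and Cacna1b and Hoxa3 2 each. Sox6 held 1 and was the nearest gene to another, 20389 bp away. By a description without a test, 84 cytosines (1.23%) had 5-day means of 80% or more in the experimental and 20% or less in the control line, and 47 of these were among the 118. Where a called cytosine had at least 3 unselected cytosines within 100 bp, as 31 did, the median difference of these neighbours was 0.194 and that of the called cytosines 0.676. The count depended on single libraries: between 47 (without experimental day 12, 42 of them among the 118) and 69 were called when an experimental library or that of control day 9, 16 or 20 was left out, and 171 without control day 12.

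**Figure D4:**
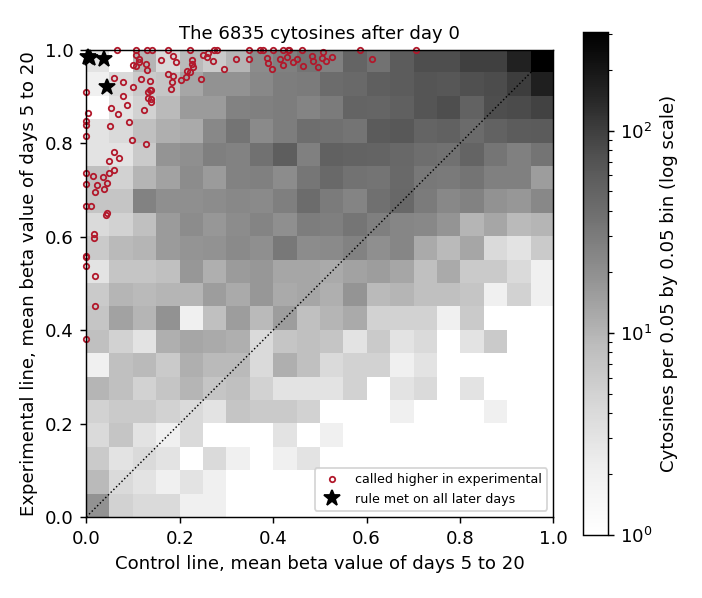
Mean beta value over days 5 to 20 in the control (x axis) and experimental line (y axis) for the 6835 selected cytosines, as counts in bins of 0.05 on a log grey scale, with the 118 called cytosines as red circles and the 4 that met the rule on all later days as stars. The dotted line marks equal values; 1928 cytosines (28.2%) lie below it, and the darkest bin is at the upper right, where both lines are methylated.

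Only 4 selected cytosines met the rule on all 5 later days, and they were named for this after their values were seen. They stood alone: none had another selected cytosine within 500 bp. The first lay between genes, 37738 bp from Ptpn13, a gene for a tyrosine phosphatase, at chr5:103387454. Its experimental values were 1, 1, 1, 0.9 and 1 and its control values 0.13, 0.0588, 0, 0 and 0 in day order, and the M-value was 11.22 higher in the experimental line (SE 1.13, adjusted p = 0.00708). A second lay in Ctdspl, a phosphatase gene, at chr9:118937130, with experimental values of 0.962, 1, 0.955, 1 and 1 and control values of 0.0417, 0, 0, 0 and 0. Its M-value was 11.86 higher in the experimental line (SE 0.89, adjusted p = 0.00303), while the 2 other cytosines listed within 100 bp averaged 0.956 in the experimental and 0.994 in the control line. The third lay in Lars2, which encodes the mitochondrial leucyl-tRNA synthetase, at chr9:123435045, with 1, 1, 1, 0.92 and 1 in the experimental and 0.0208, 0, 0, 0 and 0 in the control libraries. Its M-value was 12.33 higher in the experimental line (SE 0.88, adjusted p = 0.00303), and its 2 neighbours averaged 0.784 and 0.522. The last lay in Hk1, which encodes hexokinase 1, at chr10:62297135, with 0.909, 0.818, 0.875, 1 and 1 in the experimental and 0.143, 0, 0, 0 and 0.0833 in the control libraries. Its M-value was 9.42 higher in the experimental line (SE 1.29, adjusted p = 0.0155), and its only neighbour, the opposite strand, averaged 0.693 and 0.497. At all 4 the lines were far apart on every day, and at the 3 with a listed neighbour that neighbour did not show a difference of this size.

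More selected cytosines in a region went with a larger share of regions called, in a limma fit to the mean beta value of each of 71600 regions. These shares are counts, without a test of the difference between them. The regions were not matched for number of listed cytosines or methylation level, and the part of either in these shares was not tested. Of 4092 tested regions with at least 1 selected cytosine, 172 (4.20%) were higher in the experimental line, against 1.11% of all regions, and 11 were lower, against 0.542%. With 2 or more selected cytosines, 52 of 641 regions (8.11%) were higher, and with 3 or more, 21 of 122 (17.2%); no region with 2 or more was called lower. The median difference in M-value was 0.50 over regions with at least 1, 1.01 over those with 3 or more and 0.13 over all regions. Leaving out control day 12 gave 185 higher regions with at least 1 selected cytosine, and leaving out any other single library gave between 49 (experimental day 5) and 97 (experimental day 9). The 21 called regions with 3 or more were named after their values were seen; 10 of them were called in each of the 10 fits with 1 library left out, and these are described first.

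Thbd encodes thrombomodulin, the thrombin receptor of endothelial cells that starts the protein C pathway. Its promoter region at chr2:148408240-148408518 held 7 selected cytosines among 9 listed, and 6 of them had 5-day means of 80% or more and 20% or less. The region mean was 0.892 in the experimental and 0.0506 in the control line at day 0. On days 5 to 20 it was 0.871, 0.918, 0.887, 0.935 and 1 in the experimental libraries and 0.287, 0.149, 0.0719, 0.121 and 0.268 in the control libraries. The lines did not overlap, and the difference in M-value was 6.12 (SE 0.77, adjusted p = 0.00992). Sim2, a bHLH-PAS transcription factor gene, had a region in its body at chr16:94086959-94087119 with 4 selected cytosines among 5 listed. Later experimental values were 0.909, 0.961, 0.926, 0.808 and 1, and control values were 0.137, 0.214, 0, 0.169 and 0.0481, the control day 12 library being listed at 0. All 4 had 5-day means past both thresholds, and the region differed by 7.40 (SE 1.05, adjusted p = 0.0144).

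Gdf6 encodes a ligand of the bone morphogenetic protein family that acts in joint and eye formation. The region in its body at chr4:9859282-9859592 held 8 selected cytosines among 19 listed, with means of 0.882 in the experimental and 0.361 in the control line at day 0. Its later values were 0.841, 0.895, 0.804, 0.845 and 0.851 in the experimental and 0.331, 0.3, 0.368, 0.16 and 0.239 in the control libraries, with no overlap, and the difference was 3.80 (SE 0.38, adjusted p = 0.00283). Osr1, a zinc finger gene needed for heart and kidney development, had 5 selected cytosines among 10 listed in its body at chr12:9580800-9580883. The experimental libraries gave 0.9, 0.947, 0.898, 0.862 and 0.888 and the control libraries 0.307, 0.296, 0.283, 0.568 and 0.202, of which day 16 was the highest control value. The region means stayed separate and differed by 4.13 (SE 0.46, adjusted p = 0.00641), but the 5 selected cytosines themselves averaged 0.916 in control day 16 and 0.566 in control day 12, and the former lay above the 0.889 of experimental day 12. Sox9, a transcription factor gene of cartilage and testis development, had 3 selected cytosines among 8 listed in its body at chr11:112785394-112785464. Values of 0.758, 0.829, 0.779, 0.641 and 0.855 in the experimental and 0.185, 0.265, 0.485, 0.309 and 0.146 in the control libraries differed by 3.22 (SE 0.51, adjusted p = 0.019), although the selected cytosines themselves averaged 1 in the control day 12 library and overlapped between the lines.

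In the HoxA cluster, whose homeobox genes pattern the body axis, 2 regions were called. The region at chr6:52209440-52209646 is in the promoter window of Hoxa6 and inside longer transcripts of Hoxa3 and the antisense gene Hoxaas3, and it held 3 selected cytosines among 6 listed. It averaged 0.983 in the experimental and 0.295 in the control line at day 0. Later values were 0.945, 0.987, 0.972, 0.945 and 0.949 in the experimental and 0.224, 0.236, 0.338, 0.607 and 0.261 in the control libraries, and day 16 was the highest control value. The lines did not overlap and differed by 5.41 (SE 0.53, adjusted p = 0.00271). The region at chr6:52170342-52170608, in the body of Hoxa3, held 3 selected cytosines among 7 listed, with later values of 0.941, 0.9, 0.964, 0.885 and 0.985 in the experimental and 0.333, 0.216, 0.143, 0.295 and 0.471 in the control libraries. It differed by 5.22 (SE 0.58, adjusted p = 0.00605), without overlap.

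Upk1a encodes a uroplakin of the bladder lining. Its promoter region at chr7:30613386-30613497 held 4 selected cytosines among 6 listed, and the later values were 0.952, 0.944, 0.934, 0.87 and 0.889 in the experimental and 0.535, 0.451, 0.759, 0.511 and 0.518 in the control libraries. Day 12 was the highest of the control libraries; the region means did not overlap and differed by 3.08 (SE 0.45, adjusted p = 0.0159), whereas the 4 selected cytosines averaged 0.889 in control day 12, above the 0.870 of experimental day 16. Gna14, which encodes an alpha subunit of Gq-class G proteins, had 5 selected cytosines among 44 listed at chr19:16436318-16436842, with 0.648, 0.718, 0.761, 0.74 and 0.796 in the experimental and 0.324, 0.346, 0.358, 0.238 and 0.275 in the control libraries. The difference was 2.59 (SE 0.33, adjusted p = 0.00986). Kazn encodes kazrin, a protein of cell junctions, and had 3 selected cytosines among 11 listed at chr4:142171415-142171687. Its values of 0.607, 0.634, 0.749, 0.637 and 0.691 and 0.37, 0.31, 0.227, 0.287 and 0.333 in the experimental and control libraries did not overlap, and they differed by 2.15 (SE 0.33, adjusted p = 0.0171). In each of these 10 regions the control line was partly methylated after day 0, with means from 0.114 ± 0.0878 at Sim2 to 0.555 ± 0.119 at Upk1a (SD, n = 5 libraries).

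**Figure D5:**
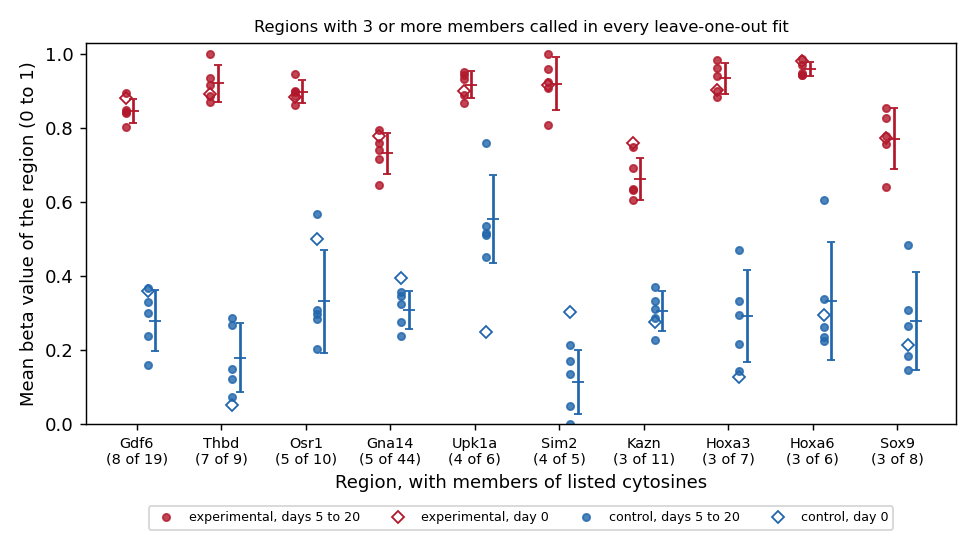
Mean beta value of the 10 regions with 3 or more selected cytosines that were called in every fit with 1 library left out; filled points are the 5 libraries of days 5 to 20 of each line, bars the mean ± SD, and open diamonds day 0. The later experimental values lie above the later control values in each region, from 0.607 (Kazn) to 1, against 0 (Sim2) to 0.759 (Upk1a).

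The other 11 called regions lost the call when certain single libraries were left out, and their adjusted p ranged from 0.0203 to 0.0448 with all 10 libraries. The region 55530 bp from Ppara, the gene of a nuclear receptor of lipid metabolism, kept it in 7 of the 10 fits and had means of 0.826 ± 0.0319 in the experimental and 0.349 ± 0.168 in the control line. The rest kept it in 0 to 3 fits. Among them, a region 5747 bp from Nr2f2, an orphan nuclear receptor gene, had means of 0.688 ± 0.0915 and 0.342 ± 0.0717, and one in the body of Casz1, a zinc finger gene that Gm13205 overlaps, had 0.598 ± 0.0469 and 0.353 ± 0.0287. Regions in Fignl2 (0.771 ± 0.0288 and 0.522 ± 0.0536), Lncpint (0.69 ± 0.126 and 0.279 ± 0.0995), Gm12679 (0.737 ± 0.0844 and 0.323 ± 0.134) and Tspan4 (0.623 ± 0.0619 and 0.308 ± 0.0577) followed, as did those in Kifc3 (0.627 ± 0.183 and 0.162 ± 0.0782) and 37454 bp from Sfswap (0.776 ± 0.11 and 0.153 ± 0.0911). The region in the pseudogene Nlrp5-ps had 0.538 ± 0.185 and 0.0825 ± 0.0966. Whether reads of a similar gene copy were placed there was not tested, so its values are uncertain. All of these values are given for the experimental and then the control line as mean ± SD over 5 libraries. The selected cytosines themselves overlapped between the lines in the regions near Ppara and Nr2f2 and in Tspan4. In control day 12 they averaged 0.830, 0.667 and 0.667 there, against lowest later experimental values of 0.694, 0.556 and 0.308. In the other regions described here they did not overlap.

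The region with the most selected cytosines was not called. It lay in Tbx3, a T-box gene of limb and mammary development, at chr5:119680672-119681100 and held 9 selected cytosines among 19 listed. At day 0 these 9 cytosines averaged 0.960 in the experimental and 0 in the control line. Later they averaged 0.598, 0.926, 0.823, 0.7 and 0.856 in the experimental and 0.198, 0.72, 0.792, 0.441 and 0.413 in the control libraries, with overlap between the lines. The difference of the region was 1.45 (SE 0.53, adjusted p = 0.199). Glis1, a Kruppel-like zinc finger gene, held 5 of 6 listed cytosines at chr4:107602669-107602902, with 0.615, 1, 0.468, 0.762 and 0.833 against 0.147, 0.019, 0.5, 0 and 0.0975, where the control value exceeded the experimental one on day 12, and differed by 5.67 (SE 1.45, adjusted p = 0.084).

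In other large clusters the lines lay closer together in the libraries after day 0. The 5 selected cytosines of a region in Rfx1, a winged-helix transcription factor gene, at chr8:84084531-84084724, where the promoter window of Mir709 also lies, averaged 0.914 in the experimental and 0 in the control line at day 0. Their later control means were 0.933, 0.951, 1, 0.931 and 0.878, and the later experimental means were 0.929, 1, 0.957, 1 and 0.829. The region differed by 0.43 (SE 0.31, adjusted p = 0.527). Agap3, which encodes an Arf GTPase-activating protein, had 7 at chr5:24474325-24475181, with later means of 0.737 in the experimental and 0.710 in the control line after 0.957 and 0.0221 at day 0. The 5-day means of the selected cytosines were 0.645 and 0.717 in Zfp697 (5 cytosines), and 0.813 and 0.697 in Gm11560 (6 cytosines). In Lgi3, a gene of a secreted neuronal protein, both lines were low, and its 6 selected cytosines stood at 0.27, 0.367, 0.197, 0.217 and 0 in the experimental libraries after 0.867 at day 0, and at 0.143, 0.189, 0.352, 0.476 and 0.126 in the control libraries. Cbln4, a gene of the cerebellin family of synapse organizers, had 5, with 0.540 in the experimental and 0.591 in the control line. Agap3, Lgi3, Zfp697 and Rfx1 were the 4 regions with at least 5 selected cytosines in which the difference shrank most, and this choice used the values given here.

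Promoters with selected cytosines were described in a limma fit to 13007 promoters with at least 3 listed cytosines. Of 448 promoters with at least 1 selected cytosine, 44 (9.82%) were higher in the experimental line, against 1.46% of all promoters, and 2 were lower, against 0.646%. Of 26 with 3 or more, 8 were higher. Among these 8, the Tfap2a promoter, of a gene for an AP-2 transcription factor, was at 0.611 ± 0.0825 in the experimental and 0.248 ± 0.0933 in the control line (adjusted p = 0.0193), and that of Hoxa6 was at 0.878 ± 0.0191 and 0.296 ± 0.104 (adjusted p = 0.000502). The Terb1 promoter, of a meiotic telomere gene, held 6 selected cytosines and was at 0.633 ± 0.058 and 0.638 ± 0.12 (adjusted p = 0.924).

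The 4 promoters whose sequences are printed above show both outcomes. In Terb1, whose 5 selected CpGs lie within 55 bases before the start, the cytosine 12 bases before it was at 0 in control day 0 and at 0.957, 0.654, 1, 0.8 and 0.742 in the later control libraries, against 0.767, 0.812, 0.722, 0.68 and 1 in the experimental ones. The one 55 bases before it was likewise at 0 in control day 0 and then at 0.556, 0.923, 1, 0.8 and 0.323, against 0.793, 1, 0.889, 0.92 and 0.889. In E030011O05Rik, the selected cytosine 56 bases before the start was at 0.889, 1, 0.9, 0.868 and 0.922 in the experimental and 0.289, 0.274, 0, 0.147 and 0.195 in the control libraries, without overlap (adjusted p = 0.0478). The one 47 bases before it was at 0.914, 1, 0.8, 0.908 and 0.784 and 0.261, 0.21, 0, 0.138 and 0.273, and it did not pass (adjusted p = 0.0668). Sox6 is of the same gene family as Sox9, and the window printed precedes one of its annotated starts, inside the span of a longer transcript. There the cytosine 194 bases before the start was at 0.75, 1, 0.652, 0.591 and 0.684 in the experimental and 0.179, 0.0476, 0, 0.0145 and 0 in the control libraries (adjusted p = 0.0497). Gm31036, whose printed window overlaps the Kifc3 region, had 1 called cytosine 56 bases before the start (adjusted p = 0.0404). That cytosine was at 0.842, 1, 0.733, 0.364 and 0.702 in the experimental and 0, 0, 0, 0 and 0.174 in the control libraries. Another at 180 bases had an adjusted p of 0.0531.

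Lists of genes were set beside these counts, and their called promoters are to be read against the 1.46% of all promoters called higher and 0.646% called lower. Of the cytosines listed in Hox genes and their promoters, counted for each gene where genes overlap, 36 of 1478 (2.44%) were selected, where 1.13% of all were. Hoxa3, whose annotated span takes in neighbouring Hox genes, held 20, Hoxa6 5 and Hoxd3 3. Of 27 Hox promoters tested, that of Hoxa6 was higher and those of Hoxa10 (adjusted p = 0.0224) and Hoxb9 (adjusted p = 0.00158) were lower in the experimental line, and neither of these 2 held a selected cytosine. Genes of non-Hox developmental transcription factors held 89 of 7055 (1.26%), with Tbx3 (11), Gata4 (6) and Osr1 (5) first. Of 108 promoters tested in this list, 5 were higher: Tbx3 at 0.297 ± 0.0602 against 0.132 ± 0.0296, Foxc1 at 0.195 ± 0.0101 against 0.0541 ± 0.0351, Foxd1 at 0.119 ± 0.072 against 0.0192 ± 0.0149, Barx1 at 0.407 ± 0.0767 against 0.196 ± 0.0429 and Sim1 at 0.218 ± 0.0957 against 0.0356 ± 0.0086 (mean ± SD, experimental against control, n = 5 libraries each). Among these, Foxc1 had 2 selected cytosines in its promoter and the other 4 promoters had none. Cdx1 was lower, at 0.496 ± 0.0753 against 0.782 ± 0.0499.

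Fibroblast and mesenchymal genes held 18 selected cytosines of 914 (1.97%), 7 in Thbd, 3 in Col5a1 and 2 in Eng. Thbd gave its 7 from only 14 listed cytosines, and the list was drawn up with earlier results of these data known. The share is therefore not read as a trait of fibroblast genes. Of 18 promoters tested, Thbd and Mmp2, a matrix metalloproteinase gene (0.401 ± 0.118 against 0.138 ± 0.0544), were higher, and Tagln, which encodes transgelin, was lower (0.021 ± 0.0182 against 0.101 ± 0.0336). Wnt ligands and secreted inhibitors held 13 of 1205 (1.08%), 3 of them in Sfrp1. Of 19 promoters, Wif1, a secreted Wnt inhibitor gene with no selected cytosine, was higher at 0.0239 ± 0.00619 against 0.00248 ± 0.0034, and Wnt5a was lower at 0.224 ± 0.0169 against 0.373 ± 0.0376. Epithelial genes held 15 of 1015 (1.48%), with Cldn3 (4), Pkp3 (2) and Grhl2 (2) first, and imprinted genes 28 of 1531 (1.83%), with Grb10 (6), Cdh15 (5) and Trappc9 (3) first. Germline and pluripotency genes held 3 of 395 (0.759%), cell cycle brakes 1 of 789 (0.127%, in Rassf5), DNA methylation writers and erasers 4 of 648 (0.617%, 2 in Tet3), and succinate dehydrogenase genes 1 of 169 (0.592%, in Sdhaf3). No promoter was called in these 6 lists, of 22, 25, 19, 18, 9 and 8 tested in the order given. Over these 101 promoters the unadjusted limma p was below 0.05 for 6 higher and 4 lower (9.90% together, against 17.1% of all promoters), and at shares of 1.46% and 0.646% a count of 0 is near the background. The median difference in M-value lay between -0.37 (Hox genes) and 0.43 (Wnt genes) over the 10 lists and at 0.20 over all promoters.

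As a check of cell identity, promoters of cell type markers were read in both lines. Of 8 fibroblast marker promoters measured, the median beta value on days 5 to 20 was 0.160 in the experimental and 0.184 in the control line, and of 4 epithelial ones 0.252 and 0.224; Cd34, the 1 blood marker measured, was at 0.273 and 0.100. None of these promoters was called. Promoter methylation is not expression, and the medians of fibroblast and epithelial markers were not far apart, so the labelled cell type was not settled by them.

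The difference between the lines was also tested for a change over days 5 to 20, as the line-by-day term of a limma fit. No selected cytosine and 0% of all 497697 cytosines were called, and the lowest adjusted p was 0.999. An unadjusted p below 0.05 was found for 305 selected cytosines (4.51%) and for 3.44% of all. A p that misses the threshold does not show that the difference was constant over these days.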

How the data were processed

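For 12 RRBS libraries, 1 for each day of each line, the authors deposited, cytosine by cytosine, the methylated reads as a percent of all reads, after alignment to mm10 with Bismark, whose version was not given in the sources used here. The deposited percent values carry no read counts, and the RnBeads filters of the study came later and are not part of them, so depth per cytosine is unknown. Beta values are these percents on a scale of 0 to 1. The rule was applied to autosomal cytosines listed in all 12 libraries, with both strands of a CpG kept apart. The listed end coordinate was taken as the position counted from 1, after it was checked that it falls on C or G in the RefSeq promoter sequences.

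The members and the gene lists were chosen with earlier results of these data known. Day 0 values chose the cytosines and were not tested. The libraries of days 5 to 20 were compared with limma on M-values (offset 0.01), across all cytosines, all regions (gaps of at most 200 bp, at least 3 cytosines) and all promoters (at least 3 cytosines), and adjusted p-values (Benjamini-Hochberg) were called under 0.05. Cytosines constant over the 10 later libraries were not tested. No label says that the days of a line were separate cultures, so the p-values measure the spread between days. The fits were tested on simulated data.

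Gene positions came from RefSeq for GRCm38.p6. Of 47038 autosomal genes 33541 had a strand, 7794 of them matched by symbol to the older NCBIM37 annotation, of which only the strand was read. Named were the 12 regions with the most selected cytosines, the 4 regions with at least 5 in which the difference shrank most, and up to 3 genes per list with the most; no region had 3 cytosines that met the rule on all days, and no isolated cytosine that did had 3 listed neighbours. The 4 cytosines that met the rule throughout and the called regions with 3 or more were added after their values were seen. Of the regions named by these rules, 2 are not reported here. Alternatives were other thresholds, scales, offsets, groupings and region rules, a replicate block by day, and each library left out. The genome sequence of mm10 was not used here beyond promoter sequences. R 4.3.3, limma 3.58.1, Python 3.11.15, numpy 2.4.6, pandas 2.3.3 and matplotlib 3.10.9 were used.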

Additional observations from a re-analysis of the deposited data

Results flagged for a closer look

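Dixon's test at 95% was applied to the 5 later days of each line for 67 groups of values (levels and shares of the selected cytosines, and the means of the named regions), of which chance flags about 1 in 20, and it marked 1 library as far from the others in 4 of them. The Cbln4 region was at 0.288 in experimental day 9, against 0.412 to 0.458 on the other later days. In the Rfx1 region experimental day 20 was at 0.862, against 0.903 to 0.918. The Osr1 region was at 0.568 in control day 16, against 0.202 to 0.307, and the Upk1a region at 0.759 in control day 12, against 0.451 to 0.535; without these libraries both regions were still called.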

How the results depend on the processing

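No named region or cytosine changed sign under any alternative run. Among all selected cytosines, 0 were called lower in the main fit. On beta values 6 were called lower, with an offset of 0.05 4 were, and with 1 library left out up to 3 were. Of regions with 3 or more selected cytosines, 1 was called lower without experimental day 20. The rule gave 3375 cytosines with thresholds of 90% and 10%, 12956 with 70% and 30%, and 25922 when only the day 0 libraries had to list a cytosine. Those that met the rule on all later days numbered 42 when 4 of 5 days in each line sufficed, 2 with 90% and 10%, 22 with 70% and 30%, and between 4 and 9 (9 without control day 5 or day 9) with 1 library left out; of 78 CpGs whose 2 strands met the rule as a mean, 0 did, and 0 had 5-day means past both thresholds (an alternative chosen after seeing the data). Called cytosines numbered 283 on beta values, 222 with an offset of 0.05, 202 with control day 0 placed in the control group, 56 with constant cytosines kept, and 47 to 171 with 1 library left out. Called regions with at least 1 selected cytosine numbered 399 on beta values, 356 with an offset of 0.05 and 49 to 185 with 1 library left out, and those with 3 or more (also counted after seeing the data) numbered 32 on beta values and 10 to 20 with 1 library left out. In the gene lists 14 promoters were called, and 6 to 19 with 1 library left out. Mean levels moved by less than the spread between days with 1 cytosine per CpG or without clusters.

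Deviations of the lines on the same day correlated between -0.0144 and 0.0187 over the selected cytosines, and between 0.000711 and 0.00295 over all cytosines. The library of the same day was the best match on day 20 only for the selected cytosines, and on days 5, 9 and 20 for all. With depth unknown, correlations this small cannot show whether the day numbers pair the libraries. With the replicate block by day, 0 selected cytosines, 0 regions with at least 1, 0 regions with 3 or more and 3 promoters of the lists were called, with fewer degrees of freedom. The cause of the other shifts was not tested. Depth per cytosine is unknown, each genotype is 1 line, and no value here separates genotype from line.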

Other observations

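Single called cytosines outside the regions above are given here for other genes. They were picked from the called cytosines after their values were seen, so their direction was set by the choice. Cacna1b, which encodes a neuronal calcium channel subunit, held a pair of called cytosines a few bases apart in its body at chr2:24679348 and chr2:24679354. The first was at 0.625, 0.395, 0.385, 0.688 and 0.7 in the experimental libraries of days 5 to 20 and listed at 0 in each control library of these days (limma adjusted p = 0.00708), and the second at 0.833, 0.447, 0.385, 0.625 and 0.7 against 0, 0, 0, 0 and 0.0833 (adjusted p = 0.0171). A cytosine in Wnt10a, a Wnt ligand gene, at chr1:74793478 was at 1 in each later experimental library and at 0.6, 0.25, 0, 0.657 and 0.348 in the control libraries (adjusted p = 0.0256). Among promoters, that of 5830432E09Rik held 2 selected cytosines and was at 0.702 ± 0.0493 in the experimental and 0.153 ± 0.0478 in the control line (SD, n = 5 libraries, adjusted p = 0.000276), and those of Chga, the chromogranin A gene (0.278 ± 0.0616 against 0.0819 ± 0.0425), and Lfng, a Notch-modifying glycosyltransferase gene (0.365 ± 0.0216 against 0.226 ± 0.0288), held 2 each and were called as well.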
